A study of Mus musculus with 20 samples.

Results

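RNA-seq libraries of Fh1-/- kidney were compared with those of Fh1+/+ kidney at day 5 after induction of the gene's loss. The comparison takes 10 of the 20 samples of the series, 5 of each genotype, chosen by their labels alone, and the other 10 are the same genotypes at day 10. The mice had a mixed C57BL/6 and 129/SvJ background and were 12 weeks old. Fh1-/- mice carried 2 copies of a floxed Fh1 allele (Fh1 fl/fl;R26 CreERT2/CreERT2), in which loxP sites flank exons 3 and 4. Fh1+/+ mice were littermates with no floxed allele (Fh1+/+;R26 CreERT2/CreERT2). Both genotypes had the same Cre recombinase fused to a tamoxifen-responsive receptor, expressed in all tissues from the Rosa26 locus, and both received 3 intraperitoneal doses of 2 mg tamoxifen, 1 every other day. The question was what changes first in the adult kidney when Fh1 is lost.

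Fh1 encodes fumarate hydratase, which turns fumarate into malate in mitochondria as a step of the tricarboxylic acid (TCA) cycle. Without it fumarate builds up, binds to cysteines of proteins such as KEAP1, the inhibitor of the transcription factor NRF2, and inhibits enzymes that depend on 2-oxoglutarate. In people, inherited loss of the gene predisposes to an aggressive kidney cancer.

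The gene is read from the minus strand of chromosome 1 (GRCm38). Because the controls have no floxed allele, Fh1-/- mice are homozygous for the floxed chromosome 1 segment and Fh1+/+ mice have none of it, so loss of Fh1 and any inherited difference in the stretch around it cannot be told apart by this design. Genes within 20 Mb of Fh1 are therefore kept apart from all others. The first of the 2 excised exons of the transcript Fh1-201 is printed because it is part of what the Fh1-/- kidneys were made to lose. It spans chr1:175616529-175616639 in the GENCODE vM21 annotation.
Fh1 exon 3: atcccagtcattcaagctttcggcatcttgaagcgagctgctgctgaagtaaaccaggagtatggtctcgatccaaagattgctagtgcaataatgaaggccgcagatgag
Exons 3 and 4 together hold 288 bases, or 96 codons with no change of reading frame, and make up 10.9% of the 2636 bases of Fh1-201. A count over the whole gene thus still collects reads from the exons that remain.

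The files hold raw counts per gene symbol. At day 5 the total count per library ranged from 17891645 to 25001294. All 15 listed proximal tubule markers, 7 of the loop of Henle, 5 of the distal tubule, 13 of the collecting duct and 9 of podocytes were expressed above the filter on low counts, and the proximal tubule markers summed to between 23300 and 28450 CPM (reads of a gene scaled to the library's total), which are the segments a whole kidney holds. Transcripts of the Y chromosome were at 111 CPM or higher in 7 libraries and at 0.7 CPM or lower in 3, namely Fh1-/- replicates 2 and 5 and Fh1+/+ replicate 1. Mice of both sexes were used. The first principal component held 45% of the variance among the 10 libraries and placed those 3 between 44.7 and 47.4 and the other 7 between -30.8 and -4.6, so the main axis separated the libraries by Y-linked reads. Among the 7 it also set Fh1-/- (-30.8 to -27.1) apart from Fh1+/+ (-20.4 to -4.6), and the second component, with 15.7%, placed all 5 Fh1-/- libraries between -26.1 and -4.3 and all Fh1+/+ libraries but replicate 1 (-4.5) between 6.4 and 37.6. The comparison was also fitted with Y-linked reads as a covariate. Because RNA came from pieces of bulk tissue, fewer cells of a type and less RNA per cell cannot be told apart. The labels number the libraries without naming animals, so the p-values measure the spread between libraries, which may be in part technical.

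Fh1 itself differed little at the level of the whole gene. Its level in Fh1-/- replicates 1 to 5 was 219, 219, 240.3, 229.6 and 202 CPM after TMM normalization, against 265, 239, 221, 266 and 264 CPM in Fh1+/+ replicates 1 to 5. The 2 groups overlapped, since Fh1-/- replicates 3 and 4 lay above Fh1+/+ replicate 3. The log2 fold change was -0.18 with a standard error of 0.08, and edgeR's quasi-likelihood test gave an adjusted p of 1. At day 10 the whole-gene level stood the other way, with a log2 fold change of 0.54, and the difference between the days was 0.71 (standard error 0.16, adjusted p = 0.039 from edgeR), short of the threshold used here.

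A gene was said to rise or fall where edgeR gave it an adjusted p under 0.01 and a log2 fold change beyond 0.58 in either direction. Of 14404 genes tested, 5 did so, 0.0347% of all. Of these, 4 lay within 20 Mb of Fh1, or 1.5% of the 266 genes tested there, and 1 lay elsewhere, or 0.00707% of 14138. Ifi202b and Olfml2b near Fh1 and Ocel1 on chromosome 8 rose, and Cfap126 and Dusp23 near Fh1 fell. An unadjusted p under 0.05 was found for 689 genes, 4.78% of those tested, and 348 (2.42%) of them were higher and 341 (2.37%) lower in Fh1-/-. DESeq2 called 34 genes (0.177% of those to which it gave an adjusted p), 16 of them within 20 Mb of Fh1. With the Y-linked covariate edgeR called 8 genes (0.0555%), the same 5 and Pea15a, Pcp4l1 and Hsd17b7, all 3 near Fh1. At day 10 the same rule called 8 genes (0.0557%), while 27.0% of genes had an unadjusted p under 0.05.

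**Figure D1:**
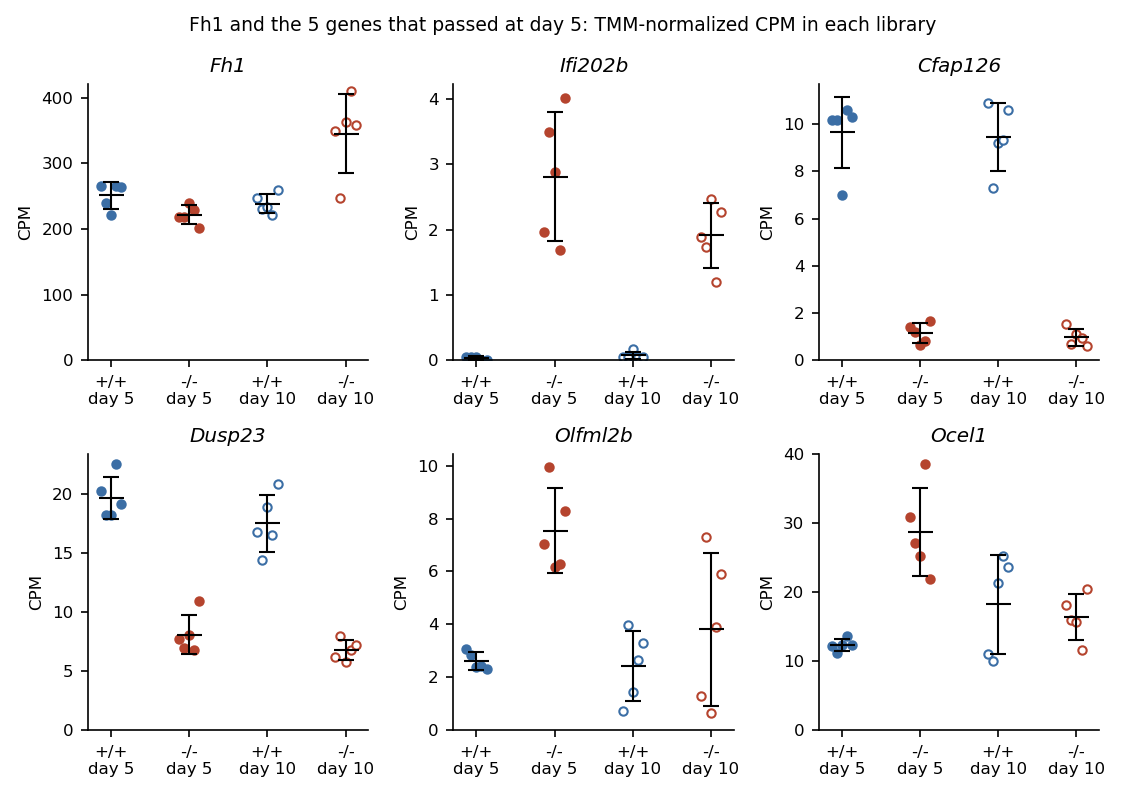
TMM-normalized CPM on linear axes for Fh1 and the 5 genes that passed at day 5, in each of the 20 libraries (filled circles day 5, open circles day 10, blue Fh1+/+, red Fh1-/-), with the mean and SD of 5 libraries as black bars. At day 5 the genotypes do not overlap for the 5 genes and do for Fh1, and at day 10 Ocel1 and Olfml2b overlap. Each day was normalized on its own.

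Ifi202b, a DNA-binding member of the interferon-inducible p200 family, had the largest log2 fold change of the called genes. It was at 1.97, 3.49, 2.88, 1.69 and 4.02 CPM in Fh1-/- replicates 1 to 5 and at 0.0504, 0.0556, 0.0522, 0 and 0 CPM in Fh1+/+ replicates 1 to 5. Every Fh1-/- library had at least 29 reads and no Fh1+/+ library more than 1. The log2 fold change was 6.2 (standard error 0.51, adjusted p = 7.3e-04 from edgeR). Ifi202b lies 1.618 Mb from Fh1, at chr1:173962568-173982744, and shares close sequence with its paralogs, so reads could have been split among them.

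The 250 bases before the annotated start of Ifi202b (RefSeq, GRCm38.p6, chr1:173982845-173983094, minus strand) are shown because interferon-stimulated genes often carry a response element there (searched as GAAA, any 2 bases and GAAA) and NRF2 targets an antioxidant element (searched as TGAC, any 3 bases and GC), and this is the reference sequence of 1 strain, not that of the mixed mice.
Ifi202b upstream: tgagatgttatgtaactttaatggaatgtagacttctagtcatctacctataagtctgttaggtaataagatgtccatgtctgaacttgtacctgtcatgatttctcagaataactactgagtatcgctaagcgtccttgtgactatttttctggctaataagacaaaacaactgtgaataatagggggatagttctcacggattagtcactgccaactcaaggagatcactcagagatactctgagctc
Neither motif, searched on both strands, was found in it or in its first 50 transcribed bases, nor in the same windows of Cfap126, Dusp23, Olfml2b and Ocel1. Of 32851 promoter entries of 300 bases, 3.44% held the first motif and 12.4% the second. All 5 called genes matched an entry, and Cfap126 had 3 of them.

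Cfap126, which encodes a cilium and flagellum protein, fell the most of the called genes. It stood at 1.42, 1.21, 0.634, 0.814 and 1.68 CPM in Fh1-/- replicates 1 to 5 and at 10.2, 10.2, 6.99, 10.6 and 10.3 CPM in Fh1+/+ replicates 1 to 5. The highest Fh1-/- library was well below the lowest Fh1+/+ library. The log2 fold change was -3.04 (standard error 0.25, adjusted p = 7.3e-04 from edgeR), and the gene lies 4.473 Mb from Fh1, at chr1:171113918-171126967. Together with Ifi202b it was called in each of the 10 fits that left out 1 library.

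Dusp23, a small phosphatase of the dual-specificity family, was at 7.67, 6.9, 8.07, 6.81 and 10.9 CPM in Fh1-/- replicates 1 to 5 and at 20.2, 18.2, 18.2, 22.5 and 19.1 CPM in Fh1+/+ replicates 1 to 5. The genotypes did not overlap, and the log2 fold change was -1.28 (standard error 0.14, adjusted p = 0.0058 from edgeR). Olfml2b, a secreted olfactomedin-domain protein of the extracellular matrix, was at 7.04, 9.97, 6.16, 6.28 and 8.28 CPM in Fh1-/- replicates 1 to 5 and at 3.07, 2.84, 2.4, 2.42 and 2.31 CPM in Fh1+/+ replicates 1 to 5. Here too no library crossed over, and the log2 fold change was 1.53 (standard error 0.17, adjusted p = 0.0079 from edgeR). Dusp23 lies 2.967 Mb and Olfml2b 4.918 Mb from Fh1, on the same side as Ifi202b and Cfap126. Dusp23 kept its call in 1 of the 10 fits that left out a library, the one without Fh1-/- replicate 5, and Olfml2b in none, with adjusted p from edgeR between 0.011 and 0.047.

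Around Fh1 many more genes differed than passed. Of the 266 genes tested within 20 Mb, 26 showed no overlap between the genotypes (9.77%), against 103 of 14138 elsewhere (0.729%) and 129 of all 14404 (0.896%). At an unadjusted p under 0.05 the share was 42.1% of 19 genes within 2 Mb of Fh1, 32.9% of 70 genes from 2 to 5 Mb, 13.1% of 61 from 5 to 10 Mb, 13.8% of 116 from 10 to 20 Mb, 3.51% of 57 from 20 to 40 Mb and 4.51% of 13573 on other chromosomes. The share was thus highest next to Fh1 and was near that of the other chromosomes beyond 20 Mb. Of the 55 such genes within 20 Mb, 21 were higher and 34 lower in Fh1-/-. With the Y-linked covariate the share was 31.2% within 20 Mb, 21.1% from 20 to 40 Mb and 10.5% on other chromosomes, where 10.9% of all genes tested had an unadjusted p under 0.05.

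**Figure D2:**
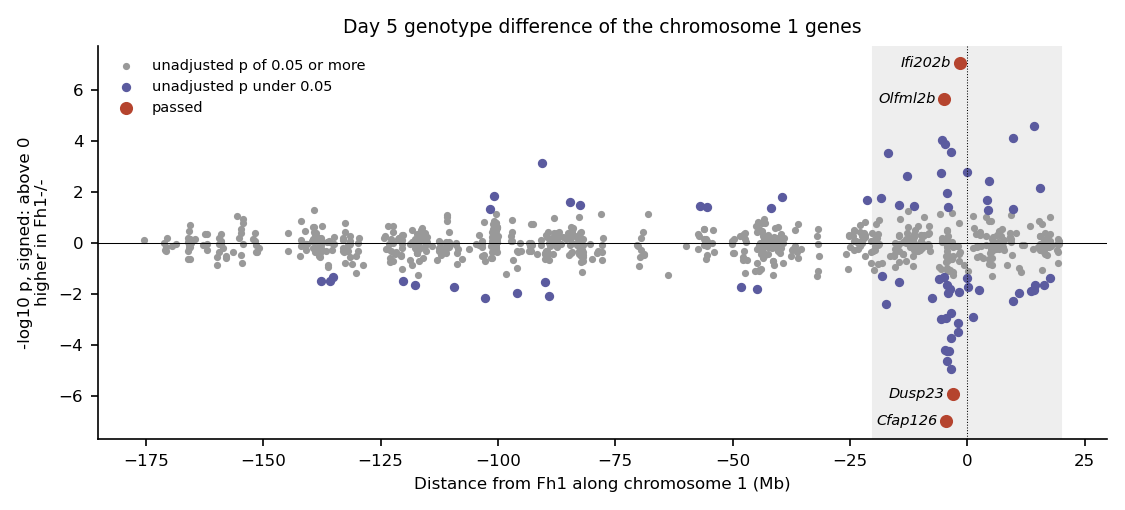
Each point is a chromosome 1 gene tested at day 5, with its distance from the start of Fh1 in Mb on the horizontal axis and -log10 of the unadjusted p from edgeR, signed by direction, on the vertical axis (above 0 higher in Fh1-/-). The shaded band is the 20 Mb window, blue points have an unadjusted p under 0.05, and the 4 red points, which passed, are Ifi202b, Olfml2b, Dusp23 and Cfap126.

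The next genes near Fh1 are named because of their values, which were seen first. Copa, the alpha subunit of the COPI coat that carries vesicles from the Golgi to the endoplasmic reticulum, was at 280.5, 247, 272, 287 and 255 CPM in Fh1-/- replicates 1 to 5 and at 369, 385, 379.7, 371 and 375 CPM in Fh1+/+ replicates 1 to 5. All 5 Fh1-/- libraries were below all 5 Fh1+/+ libraries, but the log2 fold change of -0.49 ± 0.06 (standard error), with adjusted p = 0.024 by edgeR, met neither threshold of the rule. Klhdc9, a kelch-repeat protein, had a log2 fold change of -0.67 and Smyd2, a lysine methyltransferase, one of 0.56, each with adjusted p = 0.039 from edgeR. Smyd2 lay 14.255 Mb from Fh1 on the other side, at 37.6 to 44.7 CPM in Fh1-/- and 23.9 to 31.4 CPM in Fh1+/+ libraries.

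A further set had no overlap between the genotypes at adjusted p of 0.071 to 0.166 from edgeR. Among those lower in Fh1-/- were Apoa2, an apolipoprotein of HDL (log2 fold change -1.12), Fcgr2b, the inhibitory Fc receptor (-0.67), Slamf7, a receptor of lymphocytes and macrophages (-2.28), Ncstn, the nicastrin subunit of gamma-secretase (-0.33), and Pydc3, a pyrin-domain gene of the p200 cluster (-3.09). Among those higher were Eprs, the glutamyl-prolyl-tRNA synthetase (0.57), Uap1, which makes UDP-N-acetylglucosamine (0.41), Dusp12 (0.46), Pea15a, a death-effector-domain phosphoprotein (0.78), and Pappa2, a protease of insulin-like growth factor binding proteins (1.72). Kmo, kynurenine 3-monooxygenase of tryptophan breakdown, overlaps Fh1 in the annotation (chr1:175620381-175662116) and had a log2 fold change of 0.35, with 168 to 203 CPM in Fh1-/- and 134 to 166 CPM in Fh1+/+ libraries. The library kit marks strand, but whether the counting used it is not stated in the methods, so it is uncertain how reads from the stretch that Kmo and Fh1 share were assigned.

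**Figure D3:**
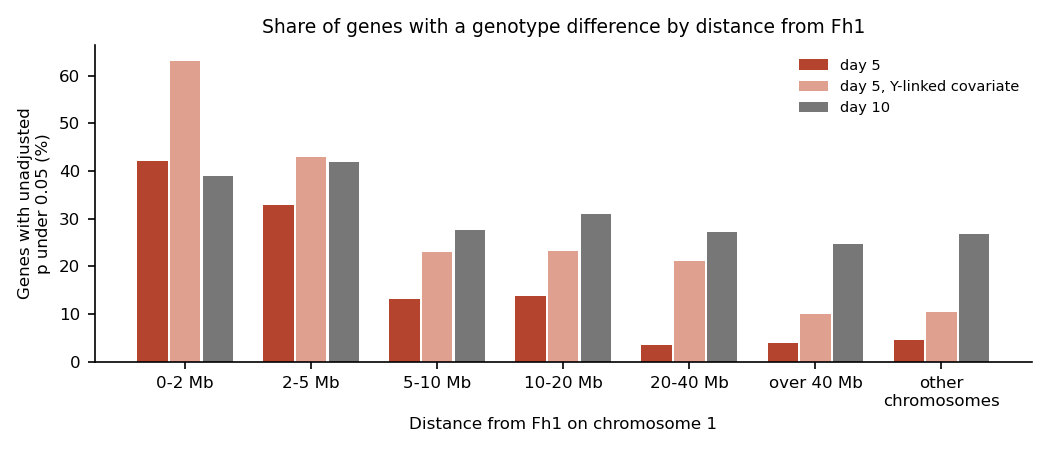
Bars give the percentage of tested genes with an unadjusted p under 0.05 from edgeR in bins of distance from Fh1 (day 5 in red, day 5 with the Y-linked covariate in light red, day 10 in grey). At day 5 the bars fall from 42.1% within 2 Mb to 4.51% on other chromosomes, and at day 10 they stand at 38.9% and 26.9%.

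The day 10 comparison has its own 10 libraries and shares no controls with day 5. Of the 5 genes called at day 5, 3 passed at day 10 in the same direction, Ifi202b (4.58), Cfap126 (-3.28) and Dusp23 (-1.37), all near Fh1. That count was 0 without Fh1+/+ day 10 replicate 4 or 5 and 1 without Fh1-/- day 10 replicate 5 or Fh1+/+ day 10 replicate 1. The difference between the days was -1.61 for Ifi202b, -0.24 for Cfap126 and -0.09 for Dusp23, with adjusted p of 0.273, 0.718 and 0.819 from edgeR's interaction test. Olfml2b was at 1.28, 7.32, 0.635, 3.88 and 5.91 CPM in Fh1-/- and 0.722, 3.97, 1.43, 2.65 and 3.31 CPM in Fh1+/+ replicates 1 to 5 at day 10, so the genotypes overlapped there. Of 258 genes near Fh1 tested on both days, 55 had an unadjusted p under 0.05 at day 5. Of these, 46 (83.6%) had the same sign at day 10, against 62.8% of all 258. Both the same sign and an unadjusted p under 0.05 at day 10 were found for 31 (56.4%). Of all 258, 33.7% had such a p at day 10 in either direction. Elsewhere 612 of 13913 genes had an unadjusted p under 0.05 at day 5. Of these, 394 (64.4%) had the same sign at day 10, against 54.3% of all genes elsewhere. Both the same sign and such a p at day 10 were found for 162 (26.5%). Of all genes elsewhere, 26.8% had such a p at day 10 in either direction. The shares in either direction are a wider measure than the same-sign shares and no baseline for them. The share of all genes with both the same sign and such a p was not counted. No test was run on these shares, since genes near each other are not independent. Across all 14934 genes, the interaction test called 5 (0.0335%), none of them near Fh1.

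The p200 family sits in a cluster between 1.569 and 2.134 Mb from Fh1, and its 7 tested members did not share a direction. These genes sense DNA or regulate transcription and are induced by interferon. Ifi202b rose, while Pyhin1 was at 0, 0.466, 0.173, 0.116 and 0.421 CPM in Fh1-/- replicates 1 to 5 and at 1.61, 1.5, 0.939, 1.37 and 1.56 CPM in Fh1+/+ replicates 1 to 5. All 5 Fh1-/- libraries were below all 5 Fh1+/+ libraries, at a log2 fold change of -2.53, for which the adjusted p was 0.271 by edgeR and 5.7e-04 by DESeq2. Mndal was at 2.5 to 6.22 CPM in Fh1-/- and 4.89 to 8.92 CPM in Fh1+/+ libraries, and Ifi203, Ifi204, Ifi205 and Aim2 overlapped between the genotypes with log2 fold changes of 0.34, -0.3, -0.49 and -0.14. Pydc4, which edgeR's filter on low counts left out and DESeq2 called, had 0 reads in the 5 Fh1-/- libraries and 41 in the 5 Fh1+/+ libraries. Taking 3 reads as the most that a count of 0 allows over the group, it was at least 15-fold lower in Fh1-/-, a bound on reads pooled over the group that covers counting error only, while single Fh1+/+ libraries had 1 to 16 reads. The median log2 fold change of the 7 tested members was -0.3, against -0.01 over all genes tested.

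Away from Fh1, edgeR called only Ocel1 by the rule above. It encodes a protein with an occludin and ELL domain and lies at chr8:71371298-71379361. It was at 30.9, 27.2, 25.2, 38.6 and 21.9 CPM in Fh1-/- replicates 1 to 5 and at 12.2, 11.2, 12.4, 13.7 and 12.4 CPM in Fh1+/+ replicates 1 to 5. Every Fh1-/- library was above the Fh1+/+ range, which was narrow, and the log2 fold change was 1.21 (standard error 0.14, adjusted p = 0.0084 from edgeR). It kept its call in 2 of 10 fits that left out a library, those without Fh1-/- replicate 4 or 5. Without Fh1+/+ replicate 2 the rule called Atp10d, a lipid-flipping ATPase on chromosome 5, in its place (-2.45).

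At day 10 Ocel1 did not separate the genotypes, with 18.2, 16, 15.7, 11.6 and 20.5 CPM in Fh1-/- and 11, 9.96, 21.4, 25.2 and 23.6 CPM in Fh1+/+ replicates 1 to 5. The CPM of each day were normalized on their own, so levels compare only roughly between days. On these scales Fh1+/+ replicates 1 and 2 were at the day 5 Fh1+/+ level. Fh1+/+ replicates 3 to 5 were near the lowest day 5 Fh1-/- libraries. The log2 fold change there was -0.15, and the difference between the days was -1.38 (standard error 0.33, adjusted p = 0.047 from edgeR). The 250 bases before its start (RefSeq, GRCm38.p6, chr8:71371048-71371297, plus strand) are given because Ocel1 was the only call off chromosome 1.
Ocel1 upstream: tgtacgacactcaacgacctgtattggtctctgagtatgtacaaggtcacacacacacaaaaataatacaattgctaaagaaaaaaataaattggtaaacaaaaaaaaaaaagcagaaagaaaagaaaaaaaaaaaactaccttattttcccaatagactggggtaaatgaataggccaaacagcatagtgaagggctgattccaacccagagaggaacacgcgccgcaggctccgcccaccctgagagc
It is rich in runs of a, and the 2 motifs searched were not found in it.

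Ocel1 was not alone in its neighbourhood. When the genome was cut into 138 windows of 20 Mb with at least 20 tested genes, the window with the highest share of genes at an unadjusted p under 0.01 was that of chromosome 1 from 160 to 180 Mb (14.9% of 154 genes), which holds Fh1. The next was chromosome 8 from 60 to 80 Mb, with 16 of 154 genes (10.4%), 7 higher and 9 lower in Fh1-/-, against 1.17% of all genes tested. The third, chromosome 5 from 60 to 80 Mb, had 7 of 71 genes (9.86%). In the chromosome 1 window 22 of 23 such genes had the same sign at day 10, and in the chromosome 8 window 8 of 16. In the chromosome 5 window 5 of the 6 with a day 10 value did. Of all genes over 20 Mb from Fh1, 54.3% had the same sign on both days. Neighbouring genes are not independent, and no test was run on the windows.

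Zfp868, a zinc finger gene in the chromosome 8 window, was at 19.2, 21.3, 14.5, 15.6 and 12.1 CPM in Fh1-/- replicates 1 to 5 and at 7.2, 8.29, 9.23, 8.47 and 9.61 CPM in Fh1+/+ replicates 1 to 5 (log2 fold change 0.95, adjusted p = 0.071 from edgeR). Colgalt1, a collagen galactosyltransferase, stood the other way without overlap, at 36 to 48.7 CPM in Fh1-/- and 54.5 to 61.3 CPM in Fh1+/+ libraries (log2 fold change -0.44). At day 10 Fh1+/+ replicates 3 to 5, the libraries with high Ocel1, had the 3 lowest Colgalt1 levels of that group, at 51, 43.6 and 46.2 CPM against 56.5 and 61.7 CPM in replicates 1 and 2. The same 3 libraries had the highest Fam32a (112, 119 and 114 CPM against 93.7 and 86.3 CPM) and the highest Ints10, an Integrator complex subunit (26.1, 25.7 and 27.5 CPM against 19.5 and 21.5 CPM). Zfp869 of the same window, with a log2 fold change of -0.28 at day 5, did not divide these libraries. In day 10 Fh1+/+ replicates 1 to 5 it was at 34.3, 31.5, 32, 29.7 and 26.4 CPM. The genes were named after their values were seen, and the split was not counted over the whole window. At day 5 Fam32a and Ints10 were higher in Fh1-/-, with log2 fold changes of 0.56 and 0.33 that did not pass and with overlapping genotypes. What the 3 libraries share beyond their genotype was not tested.

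**Figure D4:**
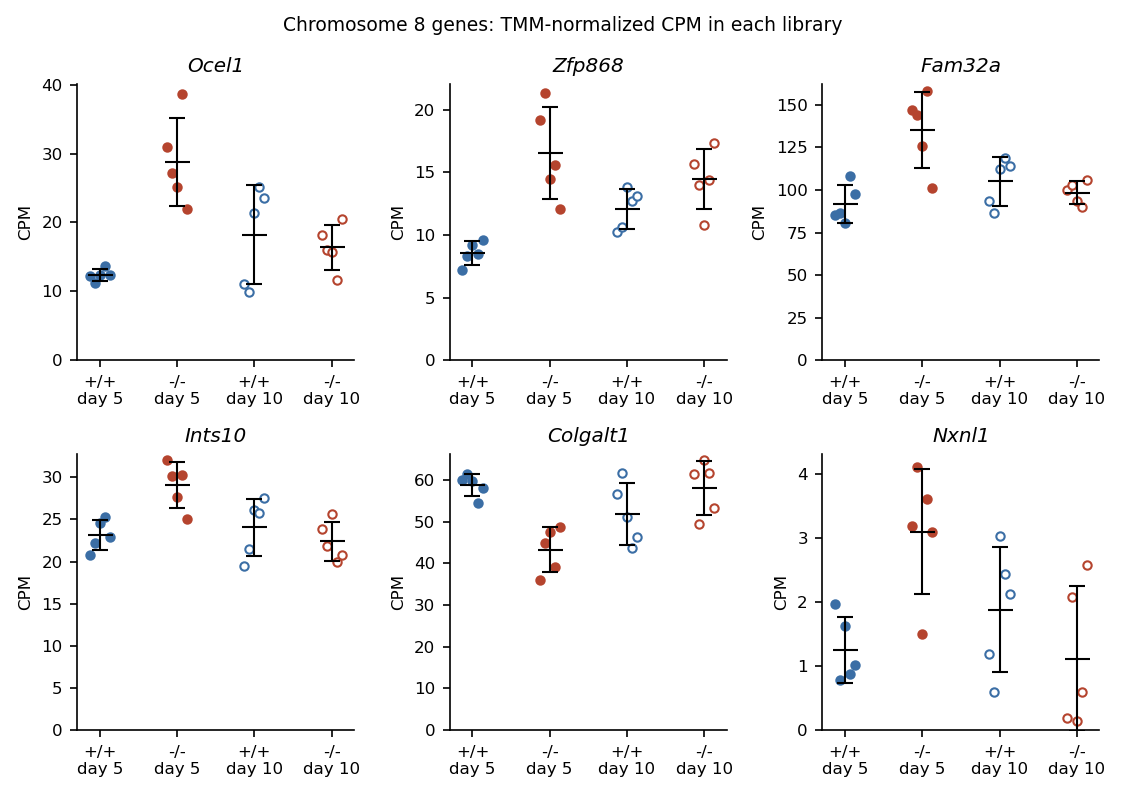
TMM-normalized CPM on linear axes for 6 genes of the chromosome 8 window in each of the 20 libraries, drawn as for the called genes, with the mean and SD of 5 libraries. Ocel1, Zfp868, Fam32a, Ints10 and Nxnl1 are higher and Colgalt1 lower in Fh1-/- at day 5, and in Fh1+/+ at day 10 Ocel1 splits into 2 libraries at 9.96 and 11 CPM and 3 at 21.4 to 25.2 CPM.

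Of the 10 genes with the lowest p elsewhere, the 9 after Ocel1 did not pass. Fau, a ribosomal protein fused to a ubiquitin-like one, was counted at 1.16 to 1.73 CPM in Fh1-/- and 0.209 to 0.445 CPM in Fh1+/+ libraries (log2 fold change 2.14, adjusted p = 0.019 from edgeR). Its count is uncertain, since ribosomal protein genes have near-identical copies among which reads can be split. Smc5, of the chromosome maintenance complexes, was lower in Fh1-/- at -0.67, as were the transcript AI467606 at -1.49, Kat8, a histone acetyltransferase, at -0.62, Pnpla3, a lipid droplet enzyme, at -1.68, and Prune2 at -2.03. Uchl1, a ubiquitin hydrolase of neurons, was higher at 1.96. For these 6 the genotypes did not overlap, and the adjusted p from edgeR lay between 0.071 and 0.16.

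Slc13a1, the sodium and sulfate cotransporter of the proximal tubule brush border, was the most abundant of the 10. It stood at 654, 518, 451, 582 and 598 CPM in Fh1-/- replicates 1 to 5 and at 413, 332, 335, 402 and 316 CPM in Fh1+/+ replicates 1 to 5. The genotypes did not overlap, but the log2 fold change of 0.64 had an adjusted p of 0.127 from edgeR (1.2e-04 from DESeq2). At day 10 it was 1.65. Of the 8 listed transporters of dicarboxylates and sulfate, 3 were higher at an unadjusted p under 0.05, where 2.42% of all genes were, Slc13a1, the kidney dicarboxylate carrier Slc13a3 (0.38) and the anion exchanger Slc26a6 (0.36), and none lower. Their median was 0.14, and none passed.

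Fkbp5, a co-chaperone that glucocorticoids induce, came next by p. It was at 140.4, 196, 164, 139 and 129 CPM in Fh1-/- replicates 1 to 5 and at 87.4, 65, 88.6, 86.2 and 116 CPM in Fh1+/+ replicates 1 to 5, with no overlap and a log2 fold change of 0.8, for which the adjusted p was 0.16 by edgeR and 5.7e-04 by DESeq2. Of 13 listed genes that glucocorticoids induce, Fkbp5, the transcription factor Zbtb16 (1.17) and Errfi1, an inhibitor of the EGF receptor (0.53), were higher at an unadjusted p under 0.05 and none lower. Their median was 0.05, and 2.42% of all genes were higher at that p. Fkbp5 and Slc13a1 had been named for their low p, so they add nothing to the counts of their lists. Zbtb16 was at 9.93 and 8.47 CPM in the Fh1-/- libraries without Y-linked reads and at 2.79 to 3.92 CPM in the other 3, against 1.99 to 3.24 CPM in Fh1+/+.

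**Figure D5:**
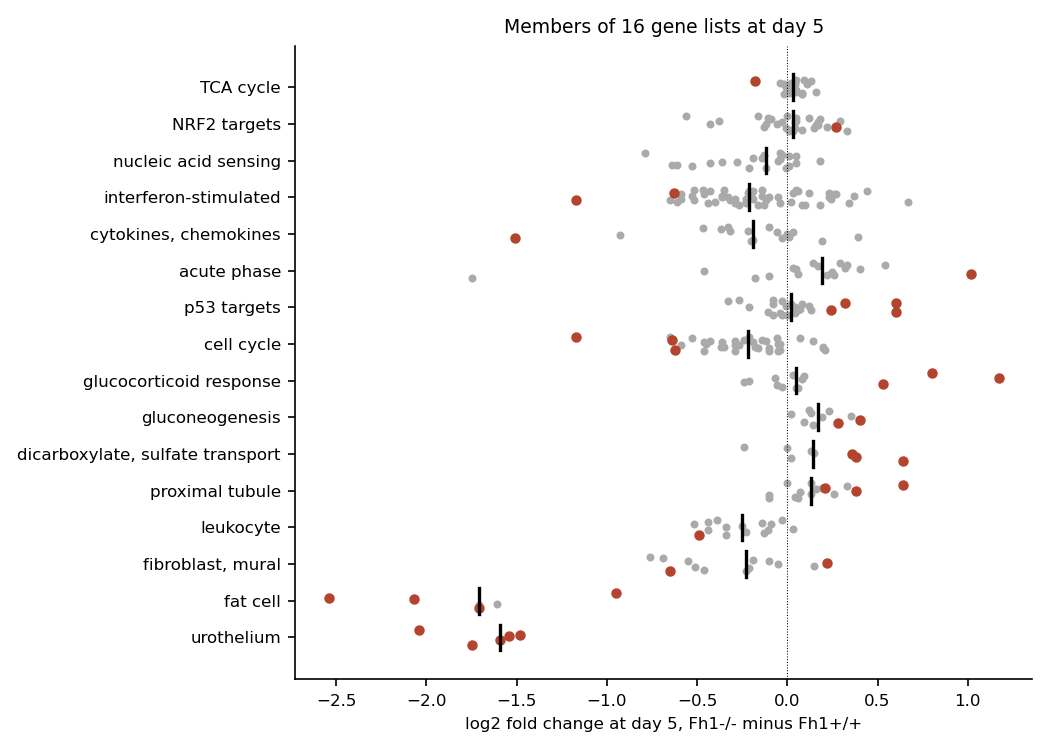
Each point is a member of 1 of 16 gene lists, with its log2 fold change at day 5 (Fh1-/- minus Fh1+/+) on the horizontal axis, red where the unadjusted p from edgeR was under 0.05, and the black bar is the list's median. The medians of 14 lists lie within 0.25 of 0, and those of the fat cell and urothelium markers lie at -1.71 and -1.59.

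None of the listed metabolic and stress genes of fumarate hydratase loss passed at day 5. Of 24 TCA cycle genes, Fh1 was the only member with an unadjusted p under 0.05, and the list, which also holds the succinate dehydrogenase subunit Sdha (0.13) and the pyruvate dehydrogenase subunit Pdhb (0.16), ran from -0.18 to 0.16 with a median of 0.03. The list of NRF2 targets also holds Nfe2l2, which encodes NRF2, and Keap1. Of its 30 tested genes, the sulfiredoxin gene Srxn1 was higher at an unadjusted p under 0.05. It was at 81.9, 103, 83.3, 94.9 and 97.8 CPM in Fh1-/- replicates 1 to 5 and at 97.3, 70, 71.1, 74.8 and 68.2 CPM in Fh1+/+ replicates 1 to 5, so that replicate 1, the Fh1+/+ library without Y-linked reads, lay within the Fh1-/- range. Nqo1, a quinone reductase, was at 0.18 and Gclc, which starts glutathione synthesis, at -0.43, and the median of the list was 0.03. With the Y-linked covariate 4 of the 30 were higher and none lower, where 4.98% of all genes were higher and 5.95% lower. Of 23 targets of the hypoxia-inducible factor, the carbonic anhydrase Car9 alone had an unadjusted p under 0.05 (0.87), and among 18 genes of glycolysis none had an unadjusted p under 0.05.

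Of the lists of nucleic acid sensing and interferon-stimulated genes, the pathway that the study examined, no member passed at day 5. Ifi202b, which passed, was listed with the p200 family and not among them. Of 56 interferon-stimulated genes, Oas1g, an oligoadenylate synthetase of the antiviral response, and Parp9 had an unadjusted p under 0.05, both lower in Fh1-/- (-1.17 and -0.63), against 2.37% of all genes tested. The list's median was -0.21 and ran from -0.36 without Fh1-/- replicate 5 to -0.08 without Fh1+/+ replicate 1. Parp9 was at 10.5, 17.6, 19.1, 8.26 and 28.4 CPM in Fh1-/- replicates 1 to 5 and at 27.8, 28.1, 29.4, 23.7 and 20.8 CPM in Fh1+/+ replicates 1 to 5, and Fh1-/- replicate 5 was inside the Fh1+/+ range. The summed level of the 56 genes ran from 1040 to 1853 CPM in Fh1-/- and from 1236 to 1870 CPM in Fh1+/+ libraries. None of 23 genes of nucleic acid sensing, a list of sensors, adaptors and factors such as Irf7, had an unadjusted p under 0.05. Their median was -0.12. Interferon genes themselves were not tested for lack of reads, with 3 reads of Ifnb1, all in 1 Fh1+/+ library.

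With the Y-linked covariate more interferon-stimulated genes were below the threshold of an unadjusted p of 0.05. Of all genes tested, 857 (5.95%) were then lower and 717 (4.98%) higher at an unadjusted p under 0.05. Of the 56 interferon-stimulated genes, 18 were lower and none higher, Ifi35 (-0.65) and the RNA sensor Ifih1 (-0.61) among them, and the median was -0.29. Of the 23 genes of nucleic acid sensing 6 were lower, among them Irf7, the interferon regulatory factor that amplifies the response (-0.53). None of these passed, and the values in parentheses are those without the covariate. Markers of several cell types were also lower with the covariate. At an unadjusted p under 0.05 these were 6 of 15 leukocyte, 6 of 13 fibroblast and mural, and 5 of 12 endothelial markers. Without the covariate they were 1, 1 and 0. In both fits 1 fibroblast and mural marker was higher at that p. Over the libraries the leukocyte markers summed to 117 to 222 CPM in Fh1-/- and 168 to 208 CPM in Fh1+/+, the fibroblast and mural markers to 497 to 912 and 583 to 1175 CPM, and the endothelial markers to 519.8 to 1082 and 664 to 1018 CPM. Among 4 tested lymphocyte markers, Cd8a was higher in Fh1-/- at an unadjusted p under 0.05 (1.51) and none was lower. With the covariate 1 was higher and 2 were lower. Cd8a was at 1.15 to 3.03 CPM in Fh1-/- and 0.445 to 0.991 CPM in Fh1+/+ libraries, and DESeq2 called it. The part of any of these cell types in the lower interferon-stimulated genes was not tested.

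Stress and growth lists held scattered members at an unadjusted p under 0.05, which 2.42% of all genes reached as higher and 2.37% as lower. Of 25 p53 targets, 4 were higher at an unadjusted p under 0.05 and none lower, the cell cycle inhibitor Cdkn1a (0.6), the growth arrest gene Gadd45a (0.6), the sestrin Sesn2 (0.32) and Zmat3 (0.24), with a median of 0.02. Cdkn1a was at 15.3, 14.8, 8.47, 16.1 and 19.3 CPM in Fh1-/- replicates 1 to 5 and at 15.8, 7.73, 8.14, 10.3 and 6.98 CPM in Fh1+/+ replicates 1 to 5, with the genotypes overlapping. Sesn2 also counts among 25 genes of the integrated stress response, of which Cth, which makes cysteine from cystathionine (0.65), and Psat1 of serine synthesis (0.51) were higher too and none lower, with a median of -0.02. Of 36 cell cycle genes 3 were lower, the ribonucleotide reductase subunits Rrm1 (-0.62) and Rrm2 (-0.64) and the mitotic kinase Bub1 (-1.17), and none higher, and the median was -0.22, running from -0.34 without Fh1+/+ replicate 4 to -0.09 without Fh1+/+ replicate 1. With the Y-linked covariate 14 of the 36 were lower at an unadjusted p under 0.05 and none higher, where 5.95% of all genes were lower. Rrm1 was at 12.6, 17.6, 11.9, 10.2 and 15.5 CPM in Fh1-/- replicates 1 to 5 and at 24.2, 15.3, 22.2, 21.3 and 21.6 CPM in Fh1+/+ replicates 1 to 5.

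Inflammatory lists had few members at that p. Of 18 acute phase genes, Saa1, serum amyloid A, was higher at an unadjusted p under 0.05 (1.02), and of 19 NF-kB targets Tnip1, an inhibitor of the pathway, was (0.25), with medians of 0.19 and 0.01. Of 17 cytokines and chemokines, Tgfb2, the growth factor TGF-beta 2, was lower at that p (-1.51), at 8.2 to 31 CPM in Fh1-/- and 16.1 to 81.3 CPM in Fh1+/+ libraries. Tgfb2 lies 10.997 Mb from Fh1. Cd14, a receptor of monocytes and macrophages that the study used as an immune marker, was at 5.53, 10.9, 4.15, 4.77 and 13.9 CPM in Fh1-/- replicates 1 to 5 and at 7.86, 8.01, 6.31, 6.6 and 7.9 CPM in Fh1+/+ replicates 1 to 5. The Fh1-/- libraries lay on both sides of the Fh1+/+ range, and the log2 fold change was 0.1 (adjusted p = 1 from edgeR). The study stained the CD14 protein in tissue at day 10, so these RNA levels at day 5 differ from it in measure and time. At day 10 Cd14 RNA was at 8.16 to 958 CPM in Fh1-/- and 8.04 to 13.2 CPM in Fh1+/+ libraries.

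None of the listed tubular and gluconeogenesis genes passed. Over all genes tested, 6875 of 14404 had a log2 fold change above 0 and 2.42% were higher at an unadjusted p under 0.05. Of 15 proximal tubule markers 13 had a log2 fold change above 0, and Slc13a1, Slc13a3 and the endocytic receptor Cubn (0.21) were higher at an unadjusted p under 0.05, with a median of 0.13. All 10 genes of the gluconeogenesis list, which also holds the glucose transporter Slc5a1, were above 0. G6pc, glucose-6-phosphatase (0.4), and Slc5a1 (0.28) were higher at that p, and the median was 0.17. Both genes of the distal tubule at that p, the thiazide-sensitive cotransporter Slc12a3 (0.51) and the magnesium channel Trpm6 (0.32), were higher. Of 13 collecting duct markers 4 were above 0, and 1, the ion transport regulator Fxyd4 (-0.53), had an unadjusted p under 0.05, with a median of -0.08. Pdk4, which shuts pyruvate dehydrogenase off during fasting, was lower at an unadjusted p under 0.05 (-0.79), at 13.3 to 27.7 CPM in Fh1-/- and 22.3 to 47.4 CPM in Fh1+/+ libraries, whereas at day 10 its log2 fold change was 3.4.

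Markers of tissue that borders the kidney had the medians farthest from 0 of the lists in the plot of gene lists. Of 6 tested fat cell genes 4 were lower in Fh1-/- at an unadjusted p under 0.05, against 2.37% of all genes, with a median of -1.71, and the list's summed level was 29.4 to 109.9 CPM in Fh1-/- and 42.8 to 281 CPM in Fh1+/+ libraries. Cfd, the fat cell protease adipsin, was at 2.18, 38.2, 1.5, 9.77 and 3.7 CPM in Fh1-/- replicates 1 to 5 and at 71.2, 43.5, 68.5, 137 and 2.74 CPM in Fh1+/+ replicates 1 to 5. Fh1-/- replicate 2 and Fh1+/+ replicate 5 stood apart from their groups. The list's median was -2.83 without Fh1-/- replicate 2 and between -2.0 and -1.39 without any other library. The other 3 were the adipokine Adipoq (-1.71), the lipid droplet coat gene Plin1 (-2.07) and the fatty acid carrier Fabp4 (-0.95), which endothelial cells also make.

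All 5 urothelium markers, the uroplakins Upk1a, Upk1b, Upk2 and Upk3a and the basal keratin Krt5, were lower at an unadjusted p under 0.05, against 2.37% of all genes, with log2 fold changes from -2.04 to -1.48. Their summed level was 5.13 to 12.2 CPM in Fh1-/- and 6.5 to 49.8 CPM in Fh1+/+ libraries. Upk1b was at 1.97, 1.86, 1.38, 2.73 and 1.78 CPM in Fh1-/- replicates 1 to 5 and at 1.31, 2.06, 10.9, 11.3 and 3.81 CPM in Fh1+/+ replicates 1 to 5. Fh1+/+ replicates 3 and 4 stood above the other 8 libraries. Hbb-bs, a haemoglobin chain of red cells, was at 22.7 and 64.9 CPM in Fh1+/+ replicates 2 and 5 and at 1.8 CPM or lower in the other 8 libraries. The part of these markers in the other results was not tested.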

How the data were processed

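Poly(A) RNA was sequenced from pieces of snap-frozen whole kidney. Per the study's methods and the submitters' processing notes, the authors mapped reads with STAR 2.6.0c to GRCm38, filtered them with Cutadapt, counted them with Rsubread on GENCODE genes, and deposited raw counts per gene, not normalized, for 24421 symbols. Of these 0 carry the prefix mt-, and genes of the mitochondrial genome were not analysed here. Whether the counting used strand is not stated. Gene positions came from GENCODE vM21 for 23376 symbols, from RefSeq for 956, and for 89 none was found.

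The fits used edgeR 4.0.16 under R 4.3.3 (TMM, filterByExpr, glmQLFit, glmQLFTest, Benjamini-Hochberg over all genes tested) on the 10 libraries of each day, and on all 20 for the interaction of genotype and day. The call thresholds were an adjusted p of 0.01 and an absolute log2 fold change of 0.58. Every pair of replicates differed by more than sampling noise. The script was tested on simulated counts. Genes named by rule were Fh1, the calls, the 10 lowest p elsewhere, the 3 lowest-p members of a list at most, and genes that the paper names. Other genes near Fh1 or on chromosome 8 and further list members were named after their values were seen. The comparison and the lists were chosen with earlier results of these data known. Alternatives were DESeq2 1.42.0, limma-voom (limma 3.58.1), another normalization, other filters, a replicate block, a Y-linked covariate, one fit of all libraries, other windows and leaving out each library. The sequence of the other excised Fh1 exon is not reported here.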

Additional observations from a re-analysis of the deposited data

Results flagged for a closer look

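In each gene and group of 5 day 5 libraries, the highest or lowest library was compared with the other 4 by Dixon's 95% limit. It was past the limit in 8 of 182 pairs of gene and group over the 91 genes looked at, and chance flags about 1 in 20 groups. In Fh1-/-, replicate 5 had 0.515 CPM of Pydc3 (others 0 to 0.14), replicate 3 had 1.09 CPM of Pnpla3 (others 0.407 to 0.561) and 5.76 CPM of Prune2 (others 0.814 to 2.2), replicate 2 had 38.2 CPM of Cfd (others 1.5 to 9.77), and replicate 1 had 1.8 CPM of Hbb-bs (others 0.187 to 0.634). In Fh1+/+, replicate 3 had 6.99 CPM of Cfap126 (others 10.2 to 10.6), and replicate 1 had 97.3 CPM of Srxn1 (others 68.2 to 74.8) and 17.9 CPM of Rrm2 (others 8.62 to 10.4).

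For 5 genes the genotype difference itself differed between day 10 and day 5 by edgeR's interaction test. The difference was 7.06 for Fgg (standard error 0.84, adjusted p = 0.001), 6.42 for Fga (0.79, 0.001) and 8.08 for Fgb (1.23, 0.0087), the 3 chains of fibrinogen, all with day 5 log2 fold changes of 0.54 or less. It was 2.07 for 2410006H16Rik (0.28, 0.0022) and -2.35 for Slc9a8, a sodium and proton exchanger (0.34, 0.0048), whose day 5 log2 fold changes were -0.2 and 0.19.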

How the results depend on the processing

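The 5 calls at day 5, 4 near Fh1 and 1 elsewhere, depended on the tool and the threshold. DESeq2 called 34 genes, 16 near and 18 elsewhere. A looser rule, adjusted p below 0.05 at any fold, gave 9, 7 and 2. The Y-linked covariate gave 8, of which 7 were near. The 7 libraries with Y-linked reads, a choice made after seeing the data, gave 3 and 0 elsewhere (1893 genes had an unadjusted p under 0.05). One fit of all 20 libraries gave 0 elsewhere (366 genes at that p, over all tested). Leaving out 1 library gave 2 to 4 calls, 2 to 3 near and 0 to 1 elsewhere, and a log2 fold change of Fh1 from -0.22 to -0.15. Ifi202b and Cfap126 were called in every fit run except the one with the replicate block. The cause was not tested.

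The labels give both genotypes the numbers 1 to 5. Deviations of same-numbered libraries correlated at -0.548, -0.116, 0.016, 0.374 and -0.395, and 1 of 5 matched its own number best. Fh1-/- replicates 2 and 5 both matched Fh1+/+ replicate 1 best (0.697 and 0.642), and these are the libraries without Y-linked reads. The deviations thus still held the Y-linked axis, so they cannot show whether same-numbered libraries were paired by litter or batch. The main fits treated the libraries as unpaired. A fit with the replicate block called 0 genes at day 5, 0 near and 0 elsewhere (528 at an unadjusted p under 0.05), 0 that also passed at day 10, and 0 for the difference between days (2474).

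The 5 genes whose difference differed between days became 274 with DESeq2, 9 with limma-voom, 10 with no filter, 11 with the stricter filter, 62 with the Y-linked covariate and 161 by the looser rule. Leaving out 1 library gave 3 to 296, the highest without Fh1-/- day 10 replicate 2. The 3 day 5 calls that passed at day 10 became 13 with DESeq2 and 0 to 3 without 1 library, with 0 without Fh1+/+ day 10 replicate 4 or 5. Cd14 changed sign with limma-voom (-0.32), the replicate block (-0.05), the Y-linked covariate (-0.23), the 7 libraries (-0.57) and without Fh1-/- replicate 2 (-0.05) or 5 (-0.21), and Aim2 without Fh1+/+ replicate 5 (0.17). Over the fits without 1 library Cd14 ran from -0.21 to 0.26 and Aim2 from -0.38 to 0.17. Of the other named-gene values, 1716 kept their direction and side of the threshold, 31 passed newly and 36 no longer passed. Over all alternative fits, 21 values of list medians shifted by at least the median standard error of the list's members, and 928 by less. As a ratio, many other list medians moved by over 1.5 times without 1 library, the following among them. They ran from -0.56 to -0.1 for the p200 family, -0.18 to -0.04 for nucleic acid sensing and -0.34 to -0.05 for cytokines. The acute phase ran from 0.03 to 0.32, leukocyte markers from -0.52 to -0.1, fibroblast and mural markers from -0.49 to -0.14, and endothelial markers from -0.33 to -0.02. Medians that changed sign included NRF2 targets (-0.01 to 0.06), p53 targets (-0.02 to 0.06) and the integrated stress response (-0.06 to 0.07). So did glucocorticoid-induced genes (-0.05 to 0.08), collecting duct markers (-0.19 to 0.01) and podocyte markers (-0.14 to 0.52). DESeq2 called Pydc4 and Gm4759, which edgeR's filter on low counts left out.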

Other observations

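Atp10d, a lipid-flipping ATPase on chromosome 5, was at 5.87, 5.45, 5.82, 6.4 and 6.55 CPM in Fh1-/- replicates 1 to 5 and at 25.2, 5.39, 25.5, 27.2 and 54.2 CPM in Fh1+/+ replicates 1 to 5 at day 5. Fh1+/+ replicate 2 thus stood at the Fh1-/- level, and the log2 fold change of -2.19 had an adjusted p of 0.177 from edgeR and 6.4e-05 from DESeq2. At day 10 it was at 8.72, 23.6, 5.37, 6.66 and 6.8 CPM in Fh1-/- and at 18.3, 26.1, 6.39, 21.9 and 5.88 CPM in Fh1+/+ replicates 1 to 5, so that single libraries of both genotypes stood at either level.

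Gm4759, too low for the edgeR filter, drew 0 reads at day 5 from all 5 Fh1-/- libraries together and 22, 16, 31, 7 and 30 reads in Fh1+/+ replicates 1 to 5. With 3 reads as the most that a count of 0 allows over the group, it was at least 38.7-fold lower in Fh1-/-, a bound on pooled reads that covers counting error only. At day 10, Fh1-/- replicates 2, 3 and 4 had 0.559, 0.0706 and 0.382 CPM of it.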
